A study of Mus musculus with 12 samples.

Results

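The genes described here are 33 genes of the lysosome: 11 cathepsins, 2 other enzymes that act on proteins, 11 glycosidases and sulfatases, 5 genes of lipid handling and 4 membrane glycoproteins. They were chosen by their gene names in the deposited table, and all 33 were found among its 35599 genes. Messenger RNA of mouse lung was sequenced in 12 libraries, 4 from each of 3 groups. Mice of the saline group were the controls. Mice of the AE-PF group (acute exacerbation of pulmonary fibrosis) were challenged with bleomycin (BLM, a drug that scars lung tissue) and with lipopolysaccharide (LPS, a bacterial product that provokes inflammation) and left untreated. Mice of the ND-RHL group had the same BLM and LPS challenge and were then given liposomes loaded with nintedanib, an antifibrotic kinase inhibitor, and dexamethasone, a glucocorticoid, with hyaluronic acid and RGD peptides on their surface. No group with empty liposomes or with free drugs is among the 12 samples, so the drugs and their carrier cannot be told apart. Strain, sex, age, doses and times are not given in the labels, and neither is whether the replicates of a group were separate animals, so the p-values measure the spread between these samples, which may be technical in part.

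Lysosomes are acidic compartments in which hydrolases take apart proteins, glycans and lipids that reach the cell's interior by endocytosis, phagocytosis or autophagy. Most of these hydrolases are made as inactive precursors, marked with mannose 6-phosphate, carried from the Golgi to the lysosome by receptors, and switched on by the low pH that the vacuolar proton pump maintains. In the lung, macrophages are rich in lysosomes because they clear particles, dead cells and surfactant, while alveolar type 2 cells store surfactant in lysosome-related lamellar bodies. Cathepsins can also be secreted, where several of them cleave collagen, elastin and other matrix proteins.

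Values are FPKM, fragments counted to a gene, scaled by its length and by the library's depth. The steps between low values gave 16152379 to 21667129 fragments per library. Lung markers were present in every group: Sftpc of alveolar type 2 cells, Ager of type 1 cells, Scgb1a1 of club cells and Pecam1 of endothelium. AE-PF library 2 and ND-RHL library 4 stood apart by Krt13, a keratin of squamous epithelium, at 899 and 2948 FPKM against 0.163 ± 0.0709 FPKM (SD, n = 4) in saline. Summed squamous markers (7 genes) were at 1782 and 5881 FPKM there and at 1.36 to 14.7 elsewhere. Summed skeletal muscle markers (6 genes) were at 609 and 1569 FPKM there and at 3.04 to 120 elsewhere. Where this RNA came from was not tested. Differences were taken between mean log2(FPKM + 1) values, where those of weakly expressed genes come out too small, and were tested with limma over 15164 genes, with Benjamini-Hochberg adjusted p under 0.05 as the threshold. All 33 lysosomal genes passed the filter of at least 1 FPKM in at least 4 libraries, Ctse only through AE-PF and ND-RHL libraries. The summed FPKM of all genes was 273123 to 279287 in AE-PF and 298097 to 311852 in saline, so scaling every library to an equal total raised the median of all tested genes in AE-PF against saline from -0.03 to 0.09. The share of calls that were higher moved with it from 46.7% to 63.2% in AE-PF against saline and from 58.2% to 37.6% in ND-RHL against AE-PF. Quantile normalisation gave 46.4% in ND-RHL against AE-PF, and 43.5% in ND-RHL against saline in place of 60.5%.

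The first question was how the BLM and LPS challenge changed the lysosomal genes. In AE-PF lungs 24 of the 33 were higher than in saline lungs, 3 were lower and 6 did not pass the threshold. Over all tested genes 56.6% passed, 26.4% as higher and 30.2% as lower. The median difference was 0.75 for the lysosomal genes and -0.03 for all tested genes. The 4 AE-PF libraries lay above all 4 saline libraries for 24 lysosomal genes, against 25.3% of tested genes, and below them for 2, against 29%. Together the 33 genes summed to 1715 ± 78.7 FPKM in saline, 3848 ± 446 in AE-PF and 2589 ± 493 in ND-RHL (SD, n = 4 each), or 0.566%, 1.39% and 0.868% of all FPKM. Psap, the precursor of the saposins, had the highest level per length of the 33 in saline and in AE-PF, and Ctse the lowest. The sums follow Psap (mean 380 FPKM in saline, 856 in AE-PF) and Ctss (109 and 799) in large part. Leaving out the libraries with Krt13 gave 26 higher and 2 lower genes.

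**Figure D1:**
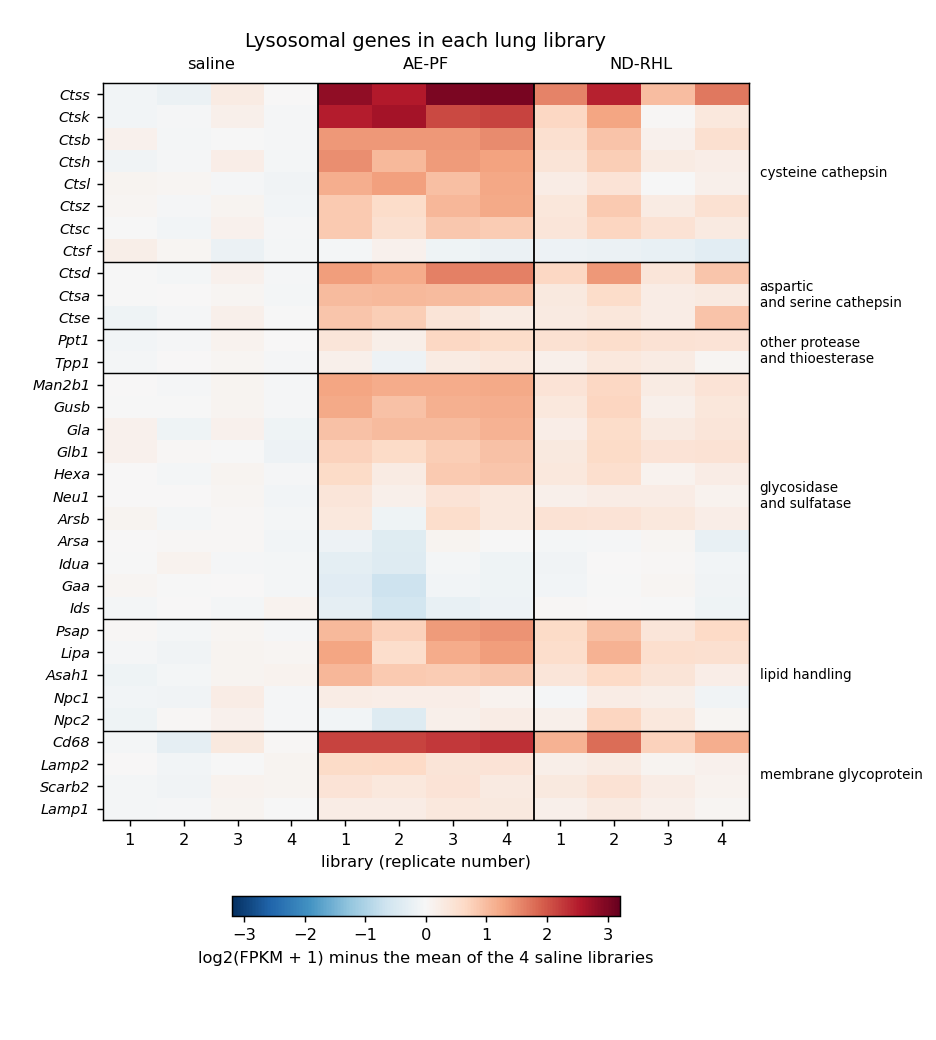
Each cell is log2(FPKM + 1) of 1 gene in 1 library minus the mean of that gene over the 4 saline libraries, with genes in rows grouped by role and the 12 libraries in columns. Ctss, Ctsk and Cd68 are the darkest rows in the AE-PF columns, and ND-RHL library 2 is the highest of its group in 26 of the 33 rows.

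Markers of monocytes and recruited macrophages, 18 genes of which none is among the 33, moved with these genes. Of the 18, 17 were higher in AE-PF than in saline and none was lower, with a median difference of 2.01. Of all tested genes 26.4% were higher and 30.2% lower. Their summed level was 4083 to 4944 FPKM in saline, 7382 to 7921 in AE-PF and 4860 to 6944 in ND-RHL, and no marker was at 0 in any library. Lyz2 and Spp1 made up 62.6% to 91.4% of these sums. The other 16 markers summed to 423 to 536 FPKM in saline, 1923 to 2758 in AE-PF and 534 to 1104 in ND-RHL. Csf1r, the receptor for the macrophage growth factor, was at 26.1 ± 1.35, 51.8 ± 2.64 and 35.3 ± 2.51 FPKM in these groups (SD, n = 4 each). Among the 33 lysosomal genes saline library 3 was the highest of its group in 22 (23.3% of tested genes), ND-RHL library 2 the highest in 26 (24.9%) and AE-PF library 2 the lowest in 21 (40.2%). The sum of all 18 markers was likewise highest in saline library 3 and ND-RHL library 2 and lowest in AE-PF library 2. Without Lyz2 and Spp1 the order turned within saline and AE-PF: the other 16 markers were lowest in saline library 3 (423 FPKM) and highest in AE-PF library 2 (2758 FPKM), and they stayed highest in ND-RHL library 2 (1104 FPKM). Markers of alveolar macrophages, 15 genes that share Mrc1 with the list above, did not move with the lysosomal genes. Of them 2 were higher and 7 lower in AE-PF than in saline (median -0.37), 5 were higher and 1 lower in ND-RHL against AE-PF (median 0.40), and 0 were higher and 2 lower in ND-RHL than in saline (median -0.29). Their sum was 495 to 692 FPKM in saline, 466 to 1252 in AE-PF and 482 to 659 in ND-RHL, with Fabp1 at 0 in AE-PF libraries 2 and 3. In whole-lung RNA more cells of a type and more RNA per cell cannot be told apart, and the part of these cells in the results was not tested.

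Transcription factors of the MiT/TFE family, among them TFEB and TFE3, are known to bind E-boxes near the starts of many lysosomal genes. Promoter sequences from RefSeq (GRCm38.p6, 250 bases before to 50 after the start) were given for 28 of the 33 genes and were searched for the E-box CACGTG and for the longer TCACGTGA, which contains it. Both read the same on either strand. CACGTG occurred in 9 of the 28 genes (32.1%), in 11.3% of the 10777 tested genes with a promoter and in 7.15% of all 32851 windows. These 9 were Arsa, Ctsa, Ctsd, Ctsf, Ctsl, Gaa, Gla, Glb1 and Lamp1. TCACGTGA occurred in 3 (Ctsa, Ctsd and Gla, 10.7%), in 2.08% of tested genes and in 0.974% of windows. Of the genes higher in AE-PF that had a promoter, 6 of 20 (30.0%) held CACGTG, and of the other 8 it was held by 3 (37.5%). The longer TCACGTGA was held by 3 of these 20 (15.0%) and by 0 of the other 8. A match is a run of letters and was not tested as a binding site. The stretches below are written 5′ to 3′ along the gene's strand with CACGTG in capitals. Lamp1 holds the most matches (chr8:13159041-13159160, plus strand, the 120 bases before the start), Gla holds 2 farther out (chrX:134601136-134601255, minus strand, 250 to 131 bases before the start) and Ctsd holds 1 within its last 120 bases (chr7:142387828-142387947, minus strand). Ctsk (chr3:95499090-95499209, plus strand) and Ctss (chr3:95526666-95526785, plus strand), the genes with the largest differences, hold none in the 120 bases shown or in the rest of their windows.
Lamp1: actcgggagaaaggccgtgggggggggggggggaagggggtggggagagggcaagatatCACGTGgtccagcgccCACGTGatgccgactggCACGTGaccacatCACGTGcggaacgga
Gla: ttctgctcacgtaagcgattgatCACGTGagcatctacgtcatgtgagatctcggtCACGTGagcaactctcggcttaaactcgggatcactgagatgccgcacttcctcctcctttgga
Ctsd: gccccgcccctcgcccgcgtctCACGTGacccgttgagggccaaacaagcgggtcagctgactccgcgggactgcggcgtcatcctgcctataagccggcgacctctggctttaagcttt
Ctsk: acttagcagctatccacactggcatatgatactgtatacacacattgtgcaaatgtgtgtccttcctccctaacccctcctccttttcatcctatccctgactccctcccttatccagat
Ctss: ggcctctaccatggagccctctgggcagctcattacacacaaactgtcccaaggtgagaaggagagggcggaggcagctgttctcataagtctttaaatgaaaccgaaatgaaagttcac

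Of the 8 cysteine cathepsins, 7 were higher in AE-PF and none was lower, beside 26.4% and 30.2% of all tested genes. Ctss encodes cathepsin S, the protease that trims the invariant chain in antigen-presenting cells. Its level was 101, 94.6, 131 and 110 FPKM in saline libraries 1 to 4, 785, 631, 881 and 901 in AE-PF, and 328, 604, 217 and 351 in ND-RHL. The 3 groups did not overlap, with ND-RHL between the others. The mean in AE-PF was 7.33 times that of saline (log2 difference 2.86, SE 0.25, limma adjusted p = 6.56e-06), the largest of the 33 genes.

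Ctsk encodes cathepsin K, a collagen-cleaving protease best known from osteoclasts and also made by activated fibroblasts and macrophages. Its level was 19.9, 20.5, 23.7 and 20.5 FPKM in saline, 125, 138, 95.2 and 98.1 in AE-PF, and 34.3, 52.3, 21.5 and 26.8 in ND-RHL. AE-PF lay above both other groups, AE-PF libraries 1 and 2 were its highest, and ND-RHL overlapped saline. The AE-PF mean was 5.40 times that of saline (log2 difference 2.36, SE 0.22, limma adjusted p = 9.75e-06). Of 12 fibroblast markers, collagen genes among them, 11 were tested. In AE-PF against saline 7 were higher and 2 lower, with a median difference of 0.64. These are 63.6% and 18.2%, beside 26.4% and 30.2% of all tested genes. All 12 summed to 692, 674, 623 and 610 FPKM in saline and 1996, 2150, 1349 and 1349 in AE-PF. In ND-RHL they summed to 831, 775, 717 and 707 FPKM. In this sum AE-PF libraries 1 and 2 were highest too, which was not particular to fibroblast markers. Alveolar macrophage markers summed to 1252, 967, 548 and 466 FPKM in AE-PF, and 8 B and plasma cell markers to 1232, 1031, 303 and 247. Monocyte and recruited macrophage markers had another order, at 7891, 7382, 7921 and 7557 FPKM. The part of fibroblasts or of other cells in the Ctsk result was not tested.

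Cathepsins B and L are broadly expressed endopeptidases of the lysosome. Ctsb was at 102, 88.6, 92.3 and 90.4 FPKM in saline, 245, 244, 247 and 268 in AE-PF, and 133, 176, 102 and 133 in ND-RHL. The AE-PF libraries were close together and above all others, at 2.69 times the saline mean (log2 difference 1.42, SE 0.13, adjusted p = 7.61e-06). Ctsl was at 36.9, 36.5, 34.3 and 32.3 FPKM in saline, 79.2, 88.8, 68.5 and 83.7 in AE-PF, and 41.5, 47.6, 34.9 and 39.3 in ND-RHL. AE-PF lay above both other groups, which overlapped each other, at 2.29 times the saline mean (log2 difference 1.17, SE 0.10, adjusted p = 5.33e-06). Ctsh, an aminopeptidase that also processes surfactant protein B in alveolar type 2 cells, was at 52.0, 55.3, 66.1 and 54.6 FPKM in saline, 161, 118, 148 and 140 in AE-PF, and 76.5, 98.6, 67.9 and 65.7 in ND-RHL. All AE-PF libraries exceeded the rest, at 2.49 times the saline mean (log2 difference 1.30, SE 0.13, adjusted p = 1.75e-05). Alveolar type 2 markers did not move with Ctsh: all 12 were lower in AE-PF (30.2% of all tested genes were), with a median difference of -1.39. Levels per cell are not known from whole-lung RNA, and the part of these cells in the Ctsh result was not tested.

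The remaining cysteine cathepsins changed less or did not pass. Ctsz, a carboxypeptidase, was at 86.9 ± 5.11 FPKM in saline and 169 ± 32.0 in AE-PF (SD, n = 4), a difference of 0.93. Ctsc, which activates the serine proteases of neutrophils, was at 50.7 ± 3.44 and 86.2 ± 9.35 FPKM, a difference of 0.75. Ctsf, another endopeptidase, was at 7.51, 6.73, 5.49 and 6.14 FPKM in saline, 6.18, 7.18, 5.78 and 5.55 in AE-PF and 5.65, 5.48, 5.35 and 4.86 in ND-RHL. Its AE-PF and saline libraries overlapped, with a log2 difference of -0.06 (95% interval -0.26 to 0.15).

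**Figure D2:**
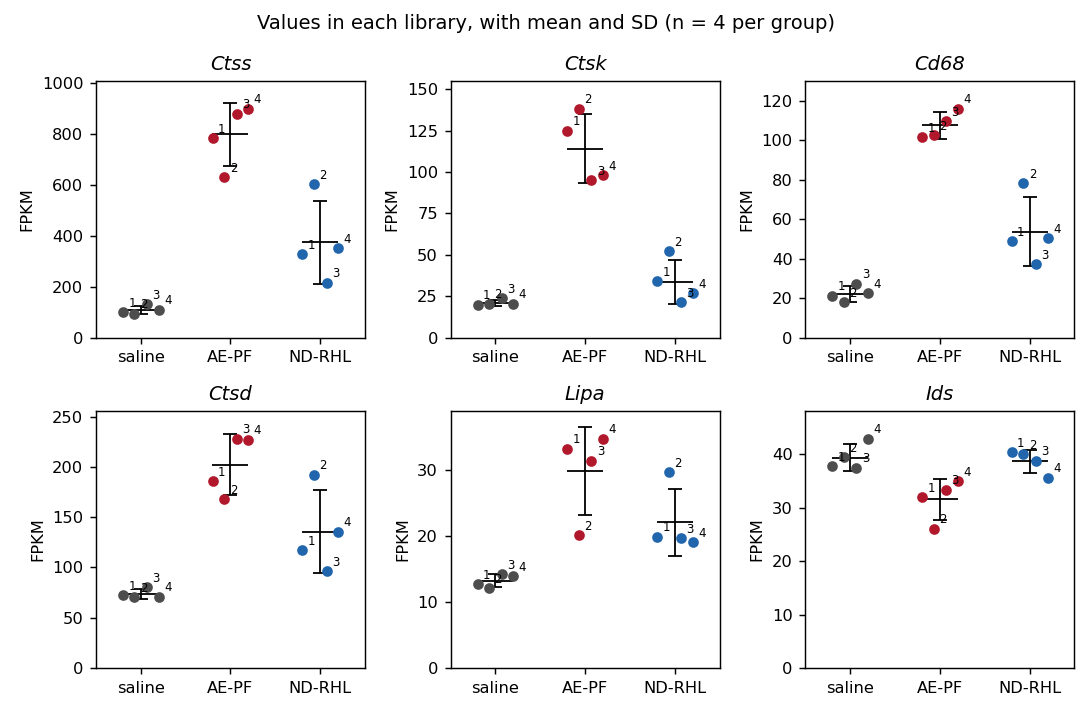
Points are FPKM of Ctss, Ctsk, Cd68, Ctsd, Lipa and Ids in each library, numbered by replicate, with the mean (horizontal line) and SD (error bar, n = 4) of saline, AE-PF and ND-RHL. Ctss and Cd68 have ND-RHL libraries between the other groups, Ctsk has ND-RHL libraries that reach saline, and Ids is lowest in AE-PF.

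The aspartic and serine cathepsins were all 3 higher in AE-PF, beside 26.4% of all tested genes. Ctsd, the main aspartic protease of the lysosome, was at 72.2, 70.4, 80.5 and 70.8 FPKM in saline, 186, 168, 228 and 227 in AE-PF, and 117, 192, 96.6 and 136 in ND-RHL. AE-PF and ND-RHL both lay above saline and overlapped each other through ND-RHL library 2. The AE-PF mean was 2.75 times that of saline (log2 difference 1.44, SE 0.18, adjusted p = 5.76e-05). Ctsa, a serine carboxypeptidase that shields Neu1 and Glb1 from breakdown, was at 30.8 ± 1.16 FPKM in saline and 62.9 ± 1.04 in AE-PF (SD, n = 4), or 2.04 times. Its partners in that complex, the sialidase Neu1 and the β-galactosidase Glb1, were at 1.29 and 1.81 times the saline mean. Ctse, an endosomal aspartic protease, was near the filter at 0.539 to 0.892 FPKM in saline and 1.01 to 2.13 in AE-PF, with adjusted p = 0.0124. It was under 1 FPKM in every saline library and was tested only because of the challenged groups, where it is higher. Its call is counted here but adds little to the count.

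Of 11 glycosidases and sulfatases 6 were higher and 3 lower (54.5% and 27.3%), beside 26.4% and 30.2% of all tested genes. The share of lower genes was thus near that of all tested genes. Man2b1, which trims mannose from glycans, was at 18.6, 17.9, 19.7 and 18.0 FPKM in saline, 45.7, 43.7, 43.7 and 44.2 in AE-PF, and 25.2, 29.8, 22.3 and 25.3 in ND-RHL. The groups did not overlap and AE-PF was 2.39 times saline (log2 difference 1.21, SE 0.07, adjusted p = 1.05e-06). Gusb, β-glucuronidase, was at 15.0, 15.2, 16.3 and 14.8 FPKM in saline, 36.8, 30.0, 34.8 and 35.2 in AE-PF, and 19.5, 25.4, 17.2 and 19.8 in ND-RHL. It too had 3 separate groups, with AE-PF at 2.23 times saline (log2 difference 1.11, SE 0.10, adjusted p = 7.84e-06). Gla, α-galactosidase A, was at 3.57 ± 0.504 and 8.25 ± 0.486 FPKM (SD, n = 4), a difference of 1.02. Glb1, Hexa (which removes hexosamines from glycolipids) and Neu1 were higher by 0.77, 0.65 and 0.33 on the log2 scale.

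The genes lower in AE-PF were 2 of the enzymes that start the breakdown of heparan and dermatan sulfate, Ids and Idua, and Gaa, which frees glucose from glycogen. Ids was at 37.8, 39.5, 37.5 and 42.9 FPKM in saline, 31.9, 26.1, 33.4 and 35.0 in AE-PF, and 40.5, 40.0, 38.8 and 35.6 in ND-RHL. AE-PF lay below both other groups, which overlapped, and fell by 0.32 from saline on the log2 scale (SE 0.09, adjusted p = 0.00795). Gaa was at 29.6, 28.0, 28.8 and 27.1 FPKM in saline, 22.0, 17.4, 26.9 and 25.7 in AE-PF, and 26.4, 28.0, 29.9 and 26.1 in ND-RHL. AE-PF lay just below saline, with library 2 lowest, and fell by 0.31 (SE 0.11, adjusted p = 0.0309). Idua was at 6.51, 7.24, 6.48 and 6.30 FPKM in saline, 5.18, 4.77, 6.35 and 5.94 in AE-PF, and 6.10, 6.66, 6.84 and 6.15 in ND-RHL. AE-PF overlapped saline at 1 library, and the fitted value fell by 0.22 (SE 0.08, adjusted p = 0.0288). With equal FPKM totals none of the 3 passed, at adjusted p of 0.106 for Ids, 0.202 for Gaa and 0.304 for Idua. Of the alternatives run, Ids lost its call in that one only. Gaa also did not pass without saline library 1 (0.0721), saline 2 (0.0557), saline 3 (0.0629) or AE-PF 1 (0.0699), without a filter (0.0607) or on the 2 groups alone (0.0578). Idua also did not pass without saline library 1 (0.0501), saline 2 (0.0845), AE-PF 1 (0.0778) or AE-PF 2 (0.0748), without a filter (0.0543) or on the 2 groups alone (0.0513).

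Sulfatases Arsa, which acts on sulfatide, and Arsb, which acts on dermatan sulfate, did not pass the threshold in any comparison. Arsa was at 13.6, 13.9, 13.9 and 12.6 FPKM in saline, 11.9, 10.0, 14.5 and 13.5 in AE-PF, and 12.8, 13.2, 14.1 and 11.2 in ND-RHL. All groups overlapped, and the AE-PF difference from saline was -0.12 (95% interval -0.33 to 0.10). Arsb was at 6.78, 6.00, 6.55 and 5.98 FPKM in saline, 8.18, 5.60, 9.76 and 8.27 in AE-PF, and 9.00, 8.90, 8.28 and 7.54 in ND-RHL. The ND-RHL libraries lay above all saline libraries, while AE-PF library 2 lay below the saline libraries and the other AE-PF libraries above them. Its AE-PF difference was 0.27 (95% interval -0.00164 to 0.54, adjusted p = 0.083), which passed as higher without AE-PF library 2 (adjusted p = 0.00138).

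In lipid handling 3 of 5 genes were higher in AE-PF, beside 26.4% of all tested genes. Psap was at 393, 364, 396 and 368 FPKM in saline, 785, 629, 975 and 1036 in AE-PF, and 585, 737, 499 and 588 in ND-RHL. AE-PF and ND-RHL both lay above saline, and ND-RHL library 2 exceeded AE-PF library 2. The AE-PF mean was 2.25 times that of saline (log2 difference 1.14, SE 0.16, adjusted p = 0.000126). Lipa, the acid lipase that frees cholesterol and fatty acids, was at 12.7, 12.1, 14.2 and 13.9 FPKM in saline, 33.3, 20.1, 31.4 and 34.8 in AE-PF, and 19.9, 29.7, 19.7 and 19.1 in ND-RHL. AE-PF library 2 lay among the ND-RHL libraries, and the AE-PF difference was 1.09 (SE 0.17, adjusted p = 0.000296). Asah1, acid ceramidase, was at 44.6 ± 3.79 and 84.0 ± 6.57 FPKM (SD, n = 4), a difference of 0.90.

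Npc1 and Npc2, which hand cholesterol out of the lysosome, passed no threshold. Npc1 was at 6.83, 6.66, 8.75 and 7.09 FPKM in saline, 8.81, 8.68, 8.68 and 7.93 in AE-PF, and 7.10, 8.73, 8.49 and 6.72 in ND-RHL. The groups overlapped, at a difference of 0.20 in AE-PF (95% interval -0.00564 to 0.40), which passed as higher without saline library 3 (adjusted p = 0.0185). Npc2 was at 124, 139, 151 and 134 FPKM in saline, 129, 103, 152 and 160 in AE-PF, and 154, 219, 172 and 142 in ND-RHL. These groups overlapped as well, at a difference of -0.02 (95% interval -0.36 to 0.31) that turned to 0.10 without AE-PF library 2. Of the other enzymes that act on proteins, Ppt1, which strips palmitate from proteins, was at 22.4, 22.9, 25.7 and 23.8 FPKM in saline, 31.2, 26.9, 37.7 and 36.3 in AE-PF and 33.4, 35.5, 33.2 and 32.6 in ND-RHL. Both challenged groups lay above saline, with the ND-RHL libraries inside the AE-PF range, and the AE-PF difference was 0.45 (adjusted p = 0.00159). Tpp1, a tripeptidyl peptidase, was at 27.7, 29.1, 30.4 and 28.3 FPKM in saline, 32.2, 25.6, 35.0 and 36.4 in AE-PF, and 32.3, 37.0, 34.5 and 30.0 in ND-RHL. Only AE-PF library 2 of its group lay below the saline libraries, and the difference of 0.15 (adjusted p = 0.235) passed as higher without that library (adjusted p = 0.014).

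All 4 membrane glycoproteins were higher in AE-PF, beside 26.4% of all tested genes. Cd68, a heavily glycosylated protein of macrophage lysosomes, was at 21.2, 17.9, 27.4 and 22.6 FPKM in saline, 101, 103, 110 and 116 in AE-PF, and 48.9, 78.1, 37.3 and 50.3 in ND-RHL. The 3 groups did not overlap. The AE-PF mean was 4.82 times that of saline (log2 difference 2.23, SE 0.19, adjusted p = 5.04e-06). Lamp1 and Lamp2, the main proteins of the lysosomal membrane, were at 1.21 and 1.45 times the saline mean, with differences of 0.28 and 0.53, and Scarb2, which carries β-glucocerebrosidase to the lysosome, was at 1.30 times with a difference of 0.38. Lamp1 did not pass under quantile normalisation (adjusted p = 0.0665).

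The second question was how the lysosomal genes differed between ND-RHL and AE-PF lungs. Of the 33 genes 17 were lower in ND-RHL, 1 was higher and 15 did not pass, while of all tested genes 41.8% passed, 17.4% as lower and 24.3% as higher. The median difference was -0.34 for the 33 genes and 0.06 for all tested genes. The groups did not overlap for 13 genes lower in ND-RHL, against 15.6% of tested genes, and for 1 higher, against 21.2%. By role the lower genes were 7 of 8 cysteine cathepsins, 2 of 3 aspartic and serine cathepsins, 4 of 11 glycosidases and sulfatases, 2 of 5 lipid genes and 2 of 4 membrane glycoproteins. Of the monocyte and recruited macrophage markers 14 of 18 were lower in ND-RHL and 1 was higher, with a median of -1.33, while alveolar macrophage markers had a median of 0.40. Without ND-RHL library 2, the library highest in most of these genes, 19 were lower, and without the libraries with Krt13 20 were lower and 1 was higher.

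Ctsk had the largest difference: its ND-RHL mean of 33.7 ± 13.4 FPKM compared with 114 ± 20.99 in AE-PF (SD, n = 4), and it fell by 1.79 on the log2 scale (SE 0.22, limma adjusted p = 0.000165). Ctss fell by 1.17 (SE 0.25, adjusted p = 0.00389), from 799 ± 123 to 375 ± 164 FPKM, and the lowest AE-PF library (631) stood only just above ND-RHL library 2 (604). Cd68 fell by 1.04 (SE 0.19, adjusted p = 0.0015), from 107 ± 6.77 to 53.6 ± 17.3 FPKM. Ctsl fell by 0.96 (SE 0.10, adjusted p = 6.1e-05) and Ctsb by 0.90 (SE 0.13, adjusted p = 0.000388), with no overlap of the groups in either. Ctsh, Man2b1, Gusb, Ctsa, Gla, Asah1, Lamp2 and Glb1 were lower without overlap, with log2 differences from -0.88 for Ctsh to -0.31 for Glb1. Ctsd, Psap, Ctsz and Ctsc passed at adjusted p of 0.0187 to 0.0335 with overlapping groups. Fitted on the 2 groups alone these 4 did not pass, at 0.0553 for Ctsd, 0.078 for Psap, 0.0779 for Ctsz and 0.0725 for Ctsc, and leaving out ND-RHL library 1 or 3 gave 0.0503 to 0.0901. Ids was the gene higher in ND-RHL, by 0.29 (SE 0.09, adjusted p = 0.0178), and did not pass with equal FPKM totals (adjusted p = 0.139). Ppt1 differed by 0.04 (95% interval -0.17 to 0.24) and Scarb2 by -0.09 (95% interval -0.27 to 0.08).

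**Figure D3:**
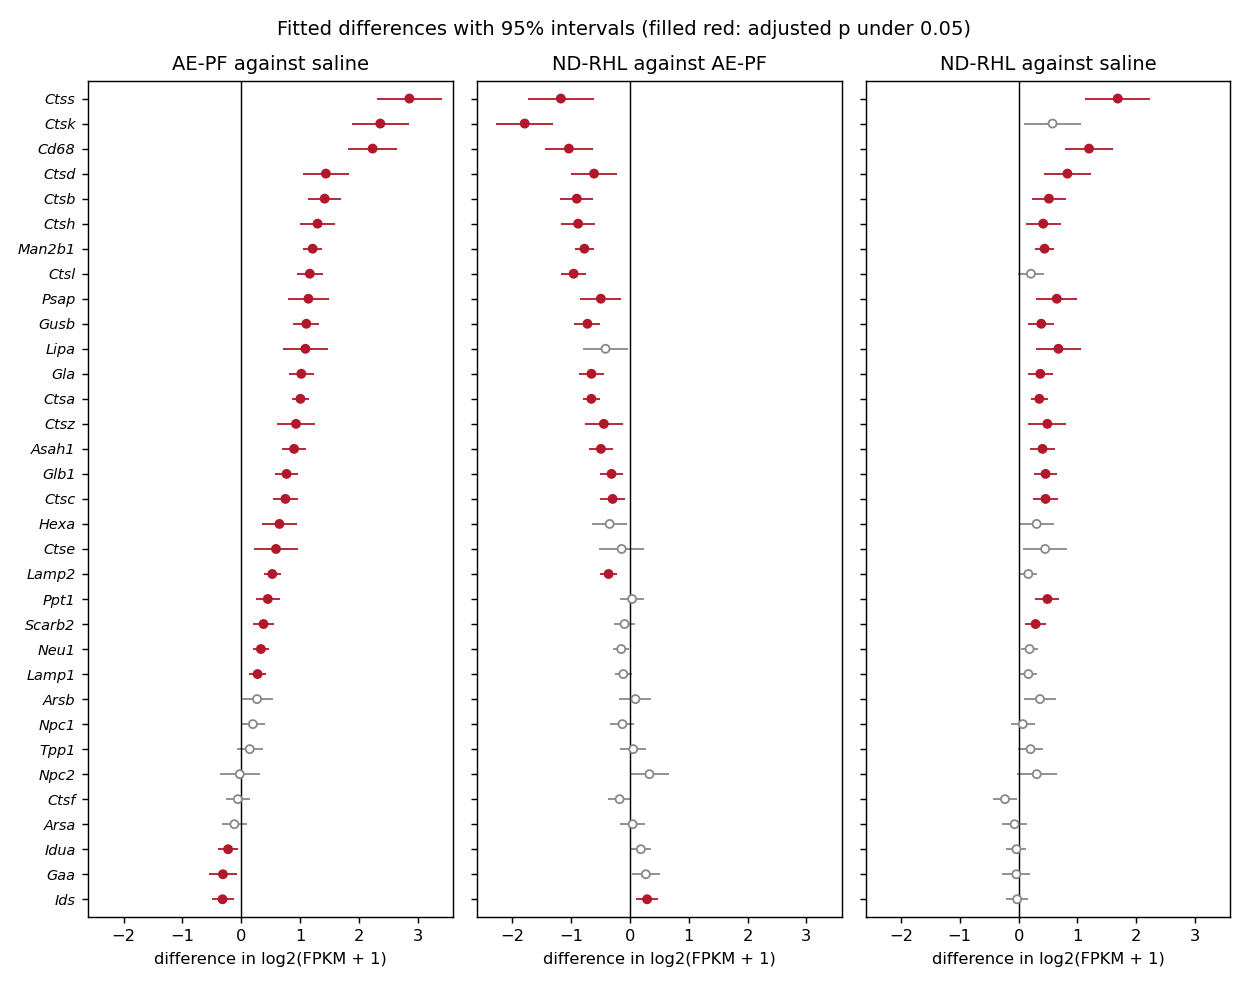
Each point is the fitted difference in log2(FPKM + 1) of 1 gene with its 95% interval, in 3 panels for AE-PF against saline, ND-RHL against AE-PF and ND-RHL against saline, filled where the adjusted p is under 0.05. The panels hold 24 higher and 3 lower, 1 higher and 17 lower, and 17 higher and 0 lower genes.

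The third question was where ND-RHL lungs stood against saline lungs. Of the 33 genes 17 were higher in ND-RHL, none was lower and 16 did not pass, while 21.9% of tested genes passed, 13.3% as higher and 8.65% as lower. The median difference was 0.37 for the 33 genes and 0.03 for all tested genes. The ND-RHL libraries lay above all saline libraries for 20 genes, against 18.1% of tested genes, and below them for 0, against 11.8%. Ctsf was the only lysosomal gene lower at an unadjusted p under 0.05, at -0.23 (limma adjusted p = 0.0931), and it passed without saline library 3 (limma adjusted p = 0.0473). Applied to recovered fragments, limma-voom also called 17 higher and 0 lower. Without the libraries with Krt13, 23 were higher and 0 lower. Ctss was higher by 1.69 (SE 0.25, adjusted p = 0.00149), Cd68 by 1.20 (SE 0.19, adjusted p = 0.00179), Ctsd by 0.83 (SE 0.18, adjusted p = 0.00877), Lipa by 0.68 (SE 0.17, adjusted p = 0.0185) and Psap by 0.65 (SE 0.16, adjusted p = 0.016). Ppt1 was higher by 0.49 (adjusted p = 0.00457). Ctsk, at 1.59 times the saline mean, did not pass (difference 0.58, 95% interval 0.09 to 1.06, adjusted p = 0.0864) but did without ND-RHL library 3 (0.0252), and Ctsl differed by 0.21 (95% interval -0.00736 to 0.43, adjusted p = 0.152). Without saline library 2 the count of higher genes was 10, with Ctsb (0.0505), Lipa (0.054) and Gla (0.0611) among those that did not pass. Of the monocyte and recruited macrophage markers 12 of 18 were higher in ND-RHL than in saline and none was lower, with a median of 0.93, while alveolar macrophage markers had a median of -0.29. With the replicate number as a block 13 genes were higher: Ctsh (adjusted p = 0.0852), Ctsz (0.0758), Scarb2 (0.0534) and Gusb (0.051) did not pass. Ctsh (0.0672), Ctsz (0.0647) and Scarb2 (0.0598) did not pass under quantile normalisation either. The same 3 did not pass without a filter (0.0987, 0.0796 and 0.0538) or with some single libraries left out. Psap did not pass without a filter either (limma adjusted p = 0.0634).

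The 3 comparisons share their groups and are given side by side rather than correlated. In 14 genes (Ctss, Ctsb, Ctsh, Ctsz, Ctsc, Ctsd, Ctsa, Man2b1, Gusb, Gla, Glb1, Psap, Asah1 and Cd68) AE-PF was above saline, ND-RHL was below AE-PF and ND-RHL was above saline. Taken singly, these calls were held by 26.4%, 17.4% and 13.3% of all tested genes. The share of all tested genes that hold the 3 calls together was not counted, so the 14 have no background beside them. Ctsk, Ctsl and Lamp2 had the same first and second differences but did not pass against saline in ND-RHL. With the replicate block Ctsh and Gusb lost the last of these calls, Ctsc (adjusted p = 0.0595) and Psap (0.0599) the call against AE-PF, and Ctsz (0.067 and 0.0758) both. The block was not the only such alternative. Without a filter Ctsc (0.0677), Psap (0.1) and Ctsz (0.0681) did not pass against AE-PF. In that fit Ctsh (0.0987), Ctsz (0.0796) and Psap (0.0634) did not pass against saline. Single libraries mattered too: Ctsh failed against saline without saline 1 (0.114), and Ctsc against AE-PF without AE-PF 1 (0.0896). Lipa, Ppt1 and Scarb2 passed as higher against saline in both challenged groups and did not pass between them. For Lipa that rested on single libraries, since it passed as lower in ND-RHL against AE-PF without AE-PF library 2 (adjusted p = 0.00651) or ND-RHL library 2 (0.0174), and with equal FPKM totals (0.0351). Ctse, Hexa, Neu1 and Lamp1 passed only as higher in AE-PF against saline, and Gaa and Idua only as lower there. Hexa passed as lower in ND-RHL against AE-PF without AE-PF library 2 (adjusted p = 0.00542) or ND-RHL library 2 (0.0323), and with equal FPKM totals (0.0224), and Neu1 without AE-PF library 2 (0.0127) and with equal FPKM totals (0.0133). In 9 genes (Gusb, Ctss, Cd68, Gla, Man2b1, Glb1, Ctsb, Ctsa and Asah1) every ND-RHL library lay above every saline library and below every AE-PF library, as in 4.21% of tested genes.

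Ctsk and Ctss are neighbours on chromosome 3 (Ctsk at 95499256 to 95509362 and Ctss at 95526786 to 95556403, both on the plus strand, GRCm38, GENCODE M21), 17423 bases apart. They were compared after their values were seen. The ratio of Ctss to Ctsk FPKM was 5.07, 4.62, 5.51 and 5.38 in saline, 6.27, 4.56, 9.25 and 9.19 in AE-PF, and 9.57, 11.6, 10.1 and 13.1 in ND-RHL. Every ND-RHL library had a higher ratio than every other library. AE-PF libraries 1 and 2 had lower ratios than AE-PF libraries 3 and 4. They were the highest of their group in Ctsk, the divisor, and the lowest in Ctss, so this order follows from those values.

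Other genes of the lysosome, 144 in the table and 133 tested, were set beside the 33. In AE-PF against saline 69 were higher and 17 lower (51.9% and 12.8%, median 0.28), beside 26.4% and 30.2% of all tested genes. In ND-RHL against AE-PF 19 were higher and 46 lower (14.3% and 34.6%, median -0.09), beside 24.3% and 17.4%. In ND-RHL against saline 45 were higher and 5 lower (33.8% and 3.76%, median 0.15), beside 13.3% and 8.65%. Of 33 other hydrolases 21 were higher and 2 lower in AE-PF. Lgmn, legumain, which cuts cathepsin precursors, was at 46.6 ± 3.13, 220 ± 47.2 and 77.8 ± 15.9 FPKM in saline, AE-PF and ND-RHL (SD, n = 4), higher by 2.19 in AE-PF (adjusted p = 2.21e-06). Sgpl1, a sphingosine phosphate lyase that belongs to the endoplasmic reticulum but was on the list, was higher by 0.87. Ctsg, a neutrophil granule protease, stayed under the filter and was not tested.

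Of 29 other lysosomal membrane proteins 16 were higher and 5 lower in AE-PF (55.2% and 17.2%, beside 26.4% and 30.2% of all tested genes). Gpnmb, a glycoprotein that is also on the macrophage list, was at 3.92 ± 0.393 FPKM in saline, 41.6 ± 14.5 in AE-PF and 16.7 ± 12.3 in ND-RHL, and Cd63, a tetraspanin, was at 49.3 ± 2.21, 125 ± 13.9 and 60.3 ± 10.5 (SD, n = 4). Slc11a1, a metal transporter of phagosomes, was higher by 1.53 and Litaf, a regulator of membrane traffic, by 0.95, while Laptm4b fell by 0.70. Lamp3, a protein of lamellar bodies that is also on the alveolar type 2 list, went the other way from Lamp1 and Lamp2, at 146 ± 12.2 FPKM in saline, 38.7 ± 24.4 in AE-PF and 146 ± 23.4 in ND-RHL. Of 22 subunits of the proton pump 13 were higher and 3 lower (59.1% and 13.6%). Tcirg1, a subunit known from osteoclasts and macrophages, was higher by 0.61 and the pore subunit Atp6v0c by 0.56. Atp6v1c2, an isoform restricted to few tissues including lung, fell by 2.33 (28.6 ± 2.42 FPKM in saline, 4.92 ± 0.927 in AE-PF and 24.6 ± 6.42 in ND-RHL), and Atp6v0e2 fell by 0.81.

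Of 21 genes that sort proteins to the lysosome 9 were higher and 5 lower in AE-PF (42.9% and 23.8%, beside 26.4% and 30.2% of all tested genes). Grn, progranulin, which travels to the lysosome with Psap, was higher by 1.15 (adjusted p = 1.47e-06). Sumf1, which activates sulfatases such as Arsa, Arsb and Ids, was higher by 0.51 and Cltc, the clathrin heavy chain, by 0.46. The mannose 6-phosphate receptor Igf2r was higher by 0.67, and M6pr, the other such receptor, differed by 0.17 (adjusted p = 0.0659). Of 9 cathepsin inhibitors 2 were higher (22.2%, below the 26.4% of all tested genes) and none was lower: Cstb by 1.34 and Cst3, secreted cystatin C, at 375 ± 21.7 FPKM in saline and 529 ± 46.5 in AE-PF, by 0.49. Cst7, cystatin F, differed by 0.55 (adjusted p = 0.104). Of 19 regulators 8 were higher and 2 lower (42.1% and 10.5%). Among the E-box binding factors Mitf was at 2.52 ± 0.214, 5.09 ± 0.496 and 2.85 ± 0.408 FPKM in saline, AE-PF and ND-RHL, Tfec at 1.37 ± 0.306, 3.39 ± 0.383 and 1.36 ± 0.325, and Tfe3 at 6.17 ± 0.147, 7.55 ± 0.177 and 6.44 ± 0.206 (SD, n = 4). All of these passed as higher in AE-PF against saline and lower in ND-RHL against AE-PF. Tfeb, the best known of them, was at 4.60 ± 0.248, 4.54 ± 0.467 and 4.46 ± 0.579 FPKM and did not pass (adjusted p = 0.867 in AE-PF against saline). Zkscan3, a repressor of lysosomal genes, fell by 0.95 and Lamtor1, which anchors mTORC1 signalling at the lysosome, was higher by 0.55.

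**Figure D4:**
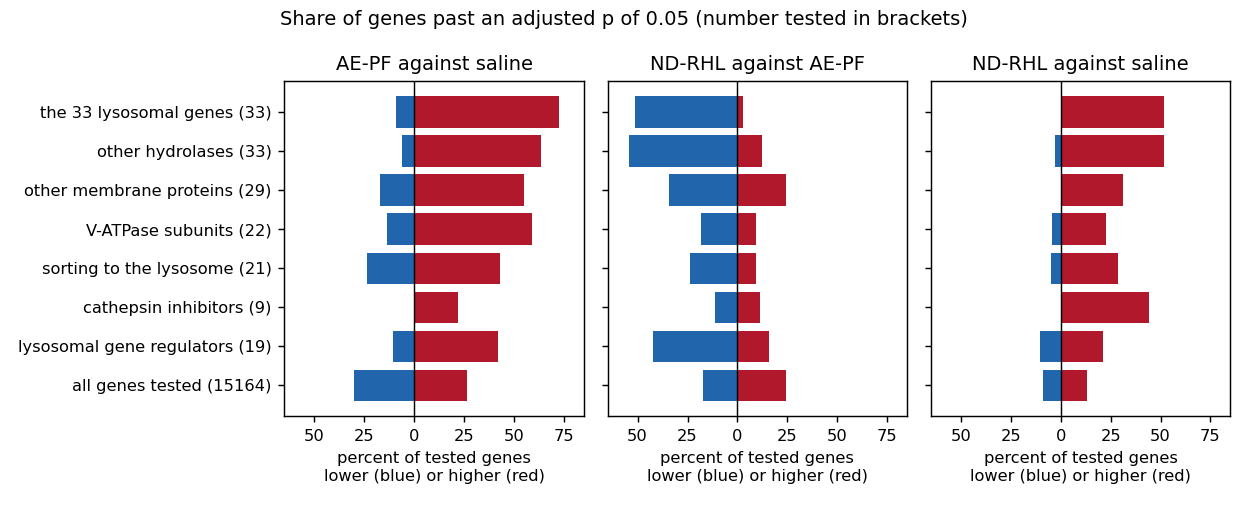
Bars give the percent of tested genes past an adjusted p of 0.05, to the right where higher and to the left where lower, for the 33 lysosomal genes, the other lysosomal lists and all genes tested, in the 3 comparisons. In AE-PF against saline 24 of the 33 genes are higher, beside 26.4% of all tested genes.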

How the data were processed

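Lung RNA of 12 mouse samples was used, 4 per group, with groups and replicate numbers from the sample titles. The authors deposited 1 table of FPKM values, with a column for each library. Tools in the submitters' processing notes are STAR 2.7.9a, Trim Galore 0.6.6, Subread 2.0.1 with featureCounts, FastQC and DESeq2 1.30.1, and the builds are GRCm38 and mm10. The role of each tool and how reads shared by similar genes were counted are not given in the sources used here. Fragments per library were worked out from the FPKM steps, with a gene length found for 99.9% of genes. All 3 groups were fitted together on log2(FPKM + 1) with limma 3.58.1 (R 4.3.3), over 15164 genes with at least 1 FPKM in at least 4 libraries, with empirical Bayes variances, 9 residual degrees of freedom and Benjamini-Hochberg adjustment over all of them. The fit was tested on simulated data with 200 changed genes, where it found 98 of 100 2-fold and 99 of 100 4-fold changes. It called 10 unchanged genes there. The simulation took 1 spread from saline for every group and changed a far smaller share of genes than was called here. It therefore does not show how well the fit does on the present data.

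The members and lists were chosen with earlier results of these data known. Values in each library are printed for the 10 largest rises and all falls in AE-PF, for the largest 5 changes in each ND-RHL comparison, and for genes that passed nowhere. Of the other lysosomal lists the 3 genes with the smallest p and 14 chosen genes are named, except 1 gene that is not reported here. The labels do not say what replicate numbers mark. Deviations of same-numbered libraries correlated above 0.1 in all 4 pairs of ND-RHL and saline (0.114 to 0.397), so blocked values stand beside that comparison, and in 1 pair of the other comparisons. Alternatives were another pseudocount and filter, other scalings, left-out libraries, a replicate block and, chosen after seeing the data, limma-voom on the recovered fragments.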

Additional observations from a re-analysis of the deposited data

Results flagged for a closer look

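Within groups of 4 libraries, 1 library stood far from the other 3 in 6 of the 99 groups tested (33 genes in 3 groups), and chance flags about 1 in 20 groups. Ctse was at 2.14 FPKM in ND-RHL library 4 and at 0.976 to 1.17 in the others. Lipa was at 29.7 FPKM in ND-RHL library 2 and at 19.1 to 19.9 in the others. Ctsc was at 72.4 FPKM in AE-PF library 2, below the others at 89.1 to 92.1. Ctsb was at 268 FPKM in AE-PF library 4, above the others at 244 to 247, and Npc1 was at 7.93 FPKM there, below the others at 8.68 to 8.81. Ctsk was at 23.7 FPKM in saline library 3 and at 19.9 to 20.5 in the others.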

How the results depend on the processing

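Of 2076 values of single lysosomal genes under 21 alternatives, 1929 kept their direction and side of the threshold, 84 lost a call and 43 gained one. The count of genes higher in AE-PF than in saline stayed at 23 to 27. The count lower there was 3, 1 without a filter, 1 with only the 2 groups compared and 0 with equal FPKM totals. Genes higher in ND-RHL than in AE-PF numbered 1, and 0 with equal FPKM totals, where other lysosomal genes numbered 8 in place of 19. Leaving out each replicate in turn gave 24 to 26 higher and 1 to 3 lower in AE-PF against saline (1 without saline 1, saline 2 or AE-PF 1), 1 to 3 higher (3 without AE-PF 3 and 2 without AE-PF 4) and 13 to 20 lower in ND-RHL against AE-PF, and 10 to 21 higher (10 without saline 2) and 0 to 1 lower (1 without saline 3) in ND-RHL against saline. For other lysosomal genes it gave 67 to 75 and 17 to 18, 11 to 21 (11 without AE-PF 1, 12 without ND-RHL 3) and 41 to 53, and 35 to 52 and 4 to 7.

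Same-numbered libraries deviated together in 5 of 12 pairs, 4 of them between ND-RHL and saline (correlations -0.387 to 0.397 over all 12), where ND-RHL libraries 2 and 3 still correlated best with another number. A replicate block gave 24 higher and 3 lower, 1 higher and 14 lower, and 13 higher and 0 lower genes, losing Ctsc (0.0595), Ctsz (0.067) and Psap (0.0599) between ND-RHL and AE-PF and Ctsh (0.0852), Ctsz (0.0758), Scarb2 (0.0534) and Gusb (0.051) between ND-RHL and saline, and it changed no other call of the 33 genes.

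None of the 20 values that turned direction had passed the threshold. With equal FPKM totals AE-PF against saline became 0.058 for Ctsf, 0.11 for Npc2 and 0.00845 for Arsa, and ND-RHL against AE-PF became -0.059 for Arsa, -0.00744 for Arsb, -0.053 for Tpp1 and -0.073 for Ppt1. Without AE-PF 2 and ND-RHL 4 the values were 0.10 for Npc2 in AE-PF against saline, -0.039 for Ppt1 in ND-RHL against AE-PF and 0.014 for Ids in ND-RHL against saline. With 1 replicate left out, AE-PF against saline ranged from -0.12 to 0.0085 for Ctsf (turned without saline 1) and -0.11 to 0.10 for Npc2 (without AE-PF 2 or saline 3), ND-RHL against AE-PF from -0.046 to 0.12 for Arsa, -0.045 to 0.19 for Arsb, -0.046 to 0.12 for Tpp1 and -0.054 to 0.10 for Ppt1 (all without AE-PF 2), and ND-RHL against saline from -0.048 to 0.016 for Ids (without saline 4 or ND-RHL 4) and -0.063 to 0.00073 for Idua (without saline 2). The cause was not tested. At these depths 3 fragments on 1 kilobase are worth 0.138 to 0.186 FPKM, which limits Ctse most.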

Other observations

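The spread between libraries of a group differed among the lysosomal genes. The median coefficient of variation of the 33 genes was 6.37% in saline, 12.3% in AE-PF and 12.4% in ND-RHL, beside 7.90%, 11.6% and 11.0% over all tested genes. It was highest for Ctse in saline (21.8%) and AE-PF (33.5%) and for Ctss in ND-RHL (43.7%). It was lowest for Ctsa in saline (3.77%) and AE-PF (1.65%) and for Ppt1 in ND-RHL (3.78%). The promoters of the 28 matched genes (30 windows) had a median GC content of 54.8%, beside 60.3% for windows of tested genes.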
